A study of Homo sapiens with 6 samples.

Results

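Later introns are the introns of a transcript after its first one, and the regions described here are the places in later introns where RPB1 or phospho-Ser2 RPB1 was called as enriched in HepG2 cells, a cell line from a human liver tumor. RPB1 is the largest subunit of RNA pol II. Members were the regions that the authors' annotation places in an intron other than intron 1. They numbered 71785 of the 271336 regions in 4 lists. The RPB1 list held 6710 of 46045 regions in WT cells and 6048 of 41605 in SHP-1 KO cells, and the pSer2 RPB1 list held 33375 of 102674 in WT and 25652 of 81012 in SHP-1 KO cells. The WT cells were the CRISPR control line, made with a nontargeting guide, and the SHP-1 KO cells were the CRISPR knockout line of PTPN6, the gene of the tyrosine phosphatase SHP-1. Both were grown as lines from single cells and were not given a treatment, so a difference between 2 clones and an effect of SHP-1 cannot be told apart. RPB1, called total RPB1 here, was recovered with an antibody to its C-terminal domain. The phosphorylated form was recovered with an antibody to Ser2-phosphorylated RPB1. Whether the first antibody binds RPB1 alike with and without phosphorylation was not tested. Each antibody and cell line had 1 library, called against the input DNA of the same cells.

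RNA pol II clears the promoter, transcribes the first intron and then the exons and later introns in turn, and the long C-terminal tail of RPB1 carries repeats whose serines are phosphorylated along the way. Ser2 is phosphorylated by kinases such as CDK9 and CDK12 during productive elongation, and this mark is known to increase toward the ends of genes. Introns also hold enhancers and starts of other transcripts, at which total RNA pol II can be found without a link to the host gene. The markers of the labelled cells were checked at promoters. Of 12 hepatocyte markers, 10 had an RPB1 promoter region in both cell lines. Of 5 blood markers, 1 had one in WT cells and 0 in SHP-1 KO cells, and 1 of 5 stromal and 1 of 4 endothelial markers had one in both.

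The class has borders that matter for its numbers. The authors' annotation names a region an intron only if it touches no promoter, UTR or exon of their gene models, so a long region that runs across an exon is counted elsewhere. Promoters were taken as 1000 bp on each side of a start, and the smallest distance of a member from an annotated start was 1001 bp. Values are fold enrichments of the region's summit over input, as the authors deposited them. They rank regions within 1 list. Values of different lists are set side by side as a description only, since they also depend on the antibody and on the depth and background of each library. Sequencing depth cannot be read from these lists. Since a group is 1 library, WT and SHP-1 KO values are set side by side without a test or a measure of replicate spread. Confidence intervals below are 95% Wilson intervals and cover counting error only. They treat each region as independent, although neighbouring regions can be pieces of 1 enriched stretch, so they can be too narrow.

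The reference sequence around the summits of strong members is shown to compare the DNA under the RPB1 regions with that under the pSer2 RPB1 regions. Each line gives the 101 bp centred on the summit in hg38, read 5′ to 3′ on the strand of the host gene, with CG dinucleotides in capitals. The first 5 regions are among the strongest RPB1 members, and the last 4 are among the strongest pSer2 RPB1 members.
SPRY4-AS1 (RPB1 WT, chr5:142357169-142357269, forward strand): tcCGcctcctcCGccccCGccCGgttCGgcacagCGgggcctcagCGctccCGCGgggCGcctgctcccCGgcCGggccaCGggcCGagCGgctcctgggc
CAMTA1 (RPB1 WT, chr1:7680336-7680436, forward strand): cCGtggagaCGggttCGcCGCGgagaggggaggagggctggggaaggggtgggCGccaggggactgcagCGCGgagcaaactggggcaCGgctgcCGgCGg
INSR (RPB1 WT, chr19:7198305-7198405, reverse strand): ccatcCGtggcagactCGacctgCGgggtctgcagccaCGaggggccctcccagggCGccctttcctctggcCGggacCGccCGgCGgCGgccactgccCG
PVALEF (RPB1 WT, chr17:81170156-81170256, forward strand): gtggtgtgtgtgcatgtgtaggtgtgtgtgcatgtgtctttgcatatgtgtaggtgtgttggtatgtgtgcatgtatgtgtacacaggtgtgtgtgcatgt
FRMD4A (RPB1 SHP-1 KO, chr10:14185671-14185771, reverse strand): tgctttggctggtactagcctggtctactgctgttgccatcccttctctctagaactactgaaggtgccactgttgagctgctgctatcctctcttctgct
AKR1C1 (pSer2 RPB1 WT, chr10:4973618-4973718, forward strand): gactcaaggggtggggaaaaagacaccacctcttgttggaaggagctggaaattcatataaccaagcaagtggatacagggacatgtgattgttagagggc
GPC3 (pSer2 RPB1 WT, chrX:133895741-133895841, reverse strand): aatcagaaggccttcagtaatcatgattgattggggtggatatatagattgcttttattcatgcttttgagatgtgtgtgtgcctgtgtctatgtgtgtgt
HPN (pSer2 RPB1 SHP-1 KO, chr19:35063057-35063157, forward strand): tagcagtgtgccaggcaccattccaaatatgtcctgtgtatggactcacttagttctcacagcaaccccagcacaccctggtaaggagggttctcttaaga
HRG-AS1 (pSer2 RPB1 WT, chr3:186627965-186628065, reverse strand): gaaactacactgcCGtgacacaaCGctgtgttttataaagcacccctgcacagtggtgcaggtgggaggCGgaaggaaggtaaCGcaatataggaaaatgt

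The strongest RPB1 members lay in unlike sequences. The window of SPRY4-AS1 held 15 CG dinucleotides and 84.2% G and C, and those of CAMTA1 and INSR held 11 each. The window of PVALEF held 0 CG and 30 TG dinucleotides, and the window of FRMD4A also held 0. Among the pSer2 RPB1 windows, AKR1C1, GPC3 and HPN held 0 and HRG-AS1 held 4. Over all members, 26.1% of the 6710 WT RPB1 windows held no CG dinucleotide, against 46.8% of the 33375 WT pSer2 RPB1 windows. In SHP-1 KO cells these shares were 31.8% and 48.1%. The whole regions showed the same order. Their median content of G and C was 50.5% for RPB1 and 41.5% for pSer2 RPB1 in WT, and 48.5% and 41.0% in SHP-1 KO cells, below the medians over all regions of these lists, which were 55.4%, 44.3%, 54.5% and 43.9% in the same order.

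The strongest RPB1 member in WT cells lay in intron 3 of 3 of SPRY4-AS1, an antisense RNA gene, at chr5:142356040-142358539. Its fold enrichment was 53.6 in WT cells and 33.6 in SHP-1 KO cells for RPB1, and 5.07 and 3.90 at the same place for pSer2 RPB1. The region in intron 2 of 20 of INSR, the insulin receptor gene, at chr19:7197218-7199165 had RPB1 fold enrichments of 38.0 and 27.8, and pSer2 RPB1 fold enrichments of 3.60 and 3.74. It lay 69.0 kb into an intron of 82.7 kb and 30.4 kb from the nearest start in GENCODE release 44. CAMTA1, which encodes a transcription activator, held a region in intron 11 of 22 at chr1:7678678-7681616 with RPB1 fold enrichments of 38.8 and 15.4. There, the pSer2 RPB1 list held a region of 4.14 in WT and none in SHP-1 KO cells. At these 3 places RPB1 was among the strongest 5% of members in both cell lines, which began at 9.49 in WT cells and 8.45 in SHP-1 KO cells, and pSer2 RPB1 lay below the 5.56 and 5.63 at which its strongest 5% began.

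PVALEF was the gene in which both antibodies had one of their 5 strongest members in WT cells. At chr17:81167654-81172240, in intron 2 of 5, the RPB1 fold enrichment was 42.8 in WT cells and 15.3 in SHP-1 KO cells and that of pSer2 RPB1 was 19.5 and 8.01. NDRG3 and FRMD4A held the strongest RPB1 members of SHP-1 KO cells, and neither was among the 5 strongest in WT cells. In intron 8 of 16 of NDRG3, at chr20:36676601-36678009, the highest RPB1 fold enrichment was 5.96 in WT cells and 44.1 in SHP-1 KO cells, and that of pSer2 RPB1 was 3.05 and 13.7. This region overlapped an exon and lay 38 bp from a start in GENCODE release 44 that the authors' annotation did not place there. In intron 2 of 24 of FRMD4A, at chr10:14185155-14186109, the RPB1 fold enrichment was 8.82 and 40.1 and that of pSer2 RPB1 was 3.55 and 11.5, and the nearest start was 11.4 kb away. FRMD4A is a gene of 687 kb in which each of the 4 lists held this 1 region only.

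Among the strongest pSer2 RPB1 members, SLC39A14, a zinc and iron transporter gene, held a WT region with a fold enrichment of 31.1 in intron 8 of 8, and the region found there in SHP-1 KO cells, of 16.0 and 25488 bp, belonged to another class. AKR1C1, an aldo-keto reductase gene, had fold enrichments of 18.0 and 13.8 in intron 6 of 7 at chr10:4973352-4975304. HPN, which encodes the membrane protease hepsin, held a SHP-1 KO member of 20.2 at chr19:35061474-35064842 in intron 9 of 12, where the WT list had 14.4 in a region of 6001 bp that belonged to another class. HRG-AS1 had 18.8 and 17.8 at chr3:186627649-186629773. In ING5 the SHP-1 KO region of 15.3 in intron 2 of 7 lay in a place with an RPB1 fold enrichment of 77.6 in WT cells and 89.4 in SHP-1 KO cells in another class.

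The members of the 2 antibodies took different places along the gene. Of the 6710 RPB1 members in WT cells, 32.7% (CI 31.6 to 33.9) were in intron 2 and 11.9% were in intron 11 or a later one. Of the 33375 pSer2 RPB1 members, 21.8% (CI 21.3 to 22.2) were in intron 2 and 22.4% in intron 11 or later. In SHP-1 KO cells intron 2 held 32.7% and 21.4%. In both cell lines the median intron number was 3 for RPB1 and 5 for pSer2 RPB1. The median number of introns in the host transcript, taken separately, was 8 and 12. The last intron held 24.5% of the RPB1 members in WT cells and 25.2% in SHP-1 KO cells, and 17.7% and 17.6% of the pSer2 RPB1 members. This share depends on how many introns a transcript has. Transcripts of 2 introns, in which every member is in the last one, held 7.68% of the RPB1 and 4.04% of the pSer2 RPB1 members in WT cells. The highest intron number was 89 for RPB1 and 105 for pSer2 RPB1 in WT cells.

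A position from 0 at the start to 1 at the end of the host transcript could be given for 6400, 5790, 31686 and 24402 members of the 4 lists, whose named intron was found in GENCODE release 44 with the summit inside it. The median position was 0.56 (quartiles 0.34 and 0.77) for RPB1 in WT cells and 0.56 (0.33 and 0.76) in SHP-1 KO cells. For pSer2 RPB1 it was 0.63 (0.41 and 0.82) in WT cells and 0.62 (0.40 and 0.82) in SHP-1 KO cells. Regions of first introns had medians of 0.19, 0.17, 0.22 and 0.22, so the later intron class marks the later part of the gene by construction. The number of members was therefore set against the length of later intron in 10 equal bins along the 7493 host transcripts. This length is shortest at the start. The transcripts were pooled over the 4 lists. Those with pSer2 RPB1 members only thus also count in the length set against RPB1.

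Per Mb of later intron, RPB1 members became slightly rarer along the transcript and pSer2 RPB1 members more frequent. The density of RPB1 members in WT cells was 18.7 per Mb in the first bin, 19.4 in the next and 15.3 in the last. In SHP-1 KO cells it was 18.6, 19.0 and 13.1. The density of pSer2 RPB1 members in WT cells was 49.5 per Mb in the first bin, 70.4 in the next, 86.4 in the eighth and 102 in the last. In SHP-1 KO cells it was 37.2, 55.0, 65.3 and 76.2. By intron number the 2 antibodies also went apart. Both sets of densities rest on the pooled transcripts, most of whose members were pSer2 RPB1. The part of this pooling in the contrast between the antibodies was not tested. RPB1 density in WT cells was 22.7 per Mb in intron 2, 16.7 in introns 4 and 5, 9.54 in introns 11 to 20 and 8.32 beyond, whereas pSer2 RPB1 density was 74.1, 81.6, 88.1 and 77.5. First introns of the transcripts with any intron region held 28.4 RPB1 regions per Mb in WT cells against 14.6 in later introns, and 68.3 pSer2 RPB1 regions per Mb against 72.0.

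**Figure D1:**
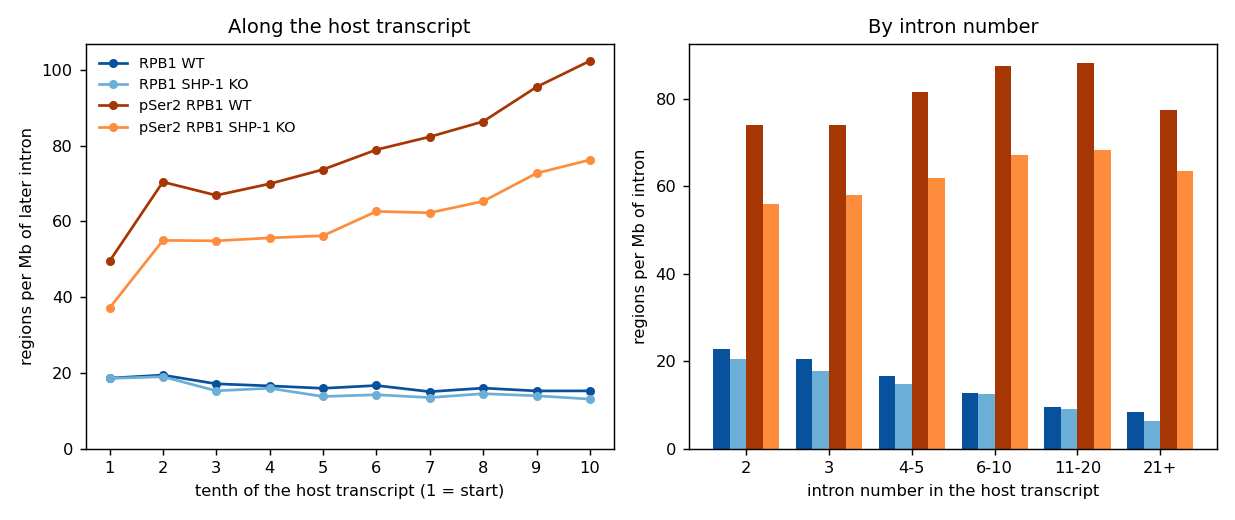
Density of later intron regions in the 4 lists, in regions per Mb, in 10 bins along the host transcript (left, lines) and by intron number (right, bars, same colours). The Mb are those of the host transcripts pooled over the 4 lists. The pSer2 RPB1 lines run from 49.5 to 102 per Mb in WT and from 37.2 to 76.2 in SHP-1 KO cells, and the RPB1 lines stay between 13.1 and 19.4.

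Members were short and often stood in rows. Their median width was 301 and 286 bp for RPB1 and 305 and 312 bp for pSer2 RPB1 in WT and SHP-1 KO cells, against 443, 423, 350 and 357 bp over all regions. Their median fold enrichment was 4.59 and 4.75 for RPB1, against 5.51 and 5.62 over all regions, and 3.54 and 3.60 for pSer2 RPB1, against 3.69 and 3.80. In WT cells, 64.8% of the 3561 introns with an RPB1 member held 1 only, and 54.0% of the 12516 introns with a pSer2 RPB1 member did. The fullest intron held 35 RPB1 members and 144 pSer2 RPB1 members. Where an intron held several, the median gap between neighbours was 518 bp for RPB1 and 549 bp for pSer2 RPB1, and about equal shares of these gaps, 67.3% and 66.8%, were under 1 kb. Such rows can be pieces of 1 enriched stretch, so that the number of regions is not the amount of RNA pol II.

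RPB1 members usually lay where pSer2 RPB1 was also called, and the reverse was rare. A pSer2 RPB1 region of any class overlapped 4302 of the 6710 RPB1 members in WT cells (64.1%, CI 63.0 to 65.3), against 58.9% of all RPB1 regions, and 3941 of 6048 in SHP-1 KO cells (65.2%, CI 64.0 to 66.4), against 58.2%. An RPB1 region overlapped 7.74% of the pSer2 RPB1 members in WT (CI 7.46 to 8.03), against 24.2% of all pSer2 RPB1 regions, and 8.83% in SHP-1 KO cells (CI 8.48 to 9.18), against 26.1%. First introns lay between, with 18.5% and 19.9%. The partner was much longer than the RPB1 member, with median widths of 1204 and 322 bp in WT cells, and 56.8% of the overlapped members lay wholly inside it. When each of the pair had to cover 50% of the other, only 12.6% of the RPB1 members in WT cells and 12.8% in SHP-1 KO cells had a pSer2 RPB1 region.

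The question of the SHP-1 KO line was addressed by counting and matching the members of the 2 cell lines. There were 0.90 RPB1 members in SHP-1 KO for each in WT cells (CI 0.87 to 0.93), the same as over all RPB1 regions (0.90). For pSer2 RPB1 the ratio was 0.77 (CI 0.76 to 0.78), against 0.79 over all regions, 0.76 for first introns, 0.78 for exons and 0.83 for promoters. The ratio differed little with intron number for pSer2 RPB1, from 0.76 in intron 2 to 0.81 in introns beyond 20. For RPB1 it was 0.90 in intron 2, 0.97 in introns 6 to 10 and 0.75 (CI 0.61 to 0.91) beyond 20, where the lists held 216 and 161 members.

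Of the RPB1 members in WT cells, 54.4% (CI 53.2 to 55.6) were not overlapped by an RPB1 region in SHP-1 KO cells, against 38.1% of all WT regions. In SHP-1 KO cells, 45.1% (CI 43.8 to 46.3) had no WT region, against 25.1%. For pSer2 RPB1 these shares were 57.0% (CI 56.5 to 57.5), against 47.8%, and 40.8% (CI 40.2 to 41.4), against 30.1%. First intron regions had nearly the same shares in WT cells, 54.6% for RPB1 and 57.1% for pSer2 RPB1, and lower ones in SHP-1 KO cells, 40.9% (CI 39.4 to 42.4) and 38.2% (CI 37.3 to 39.2). Unmatched members had lower fold enrichments. Their median fold enrichment in WT cells was 4.46 for RPB1 and 3.38 for pSer2 RPB1, against 5.19 and 3.77 for the matched ones. From the lowest to the highest of 4 bins of fold enrichment, cut at the quartiles, the matched share went from 32.7% to 72.5% for RPB1 in WT and from 41.1% to 82.4% in SHP-1 KO cells. For pSer2 RPB1 it went from 36.4% to 61.5% and from 51.6% to 78.3%. Among the strongest 5% it was 90.2%, 96.8%, 87.5% and 94.9% in the 4 lists.

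**Figure D2:**
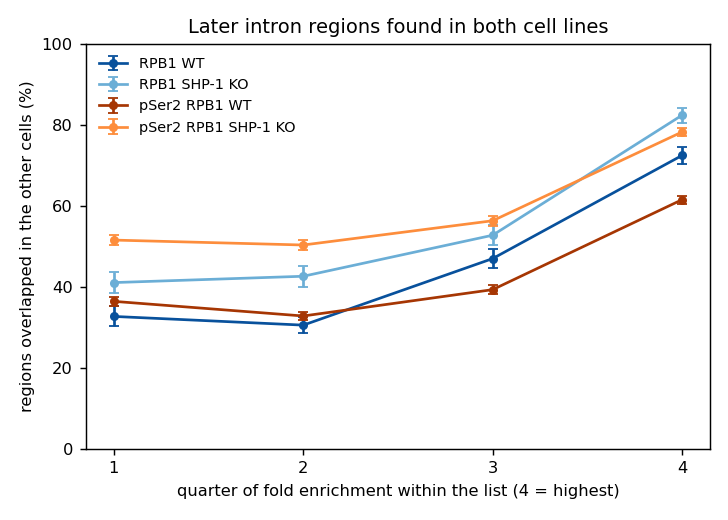
Share of later intron regions with an overlap of 1 bp or more in the other cell line, same antibody, in 4 bins of fold enrichment cut at the quartiles of each list, with 95% Wilson intervals as bars. Every list is highest in the strongest bin, between 61.5% and 82.4%.

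Host genes were taken from the transcript named in the annotation. RPB1 members lay in 2729 host genes in WT cells and 2529 in SHP-1 KO cells, and pSer2 RPB1 members in 5508 and 4542. Of the WT RPB1 hosts, 64.6% were also hosts in SHP-1 KO cells, which made 69.7% of the latter, and for pSer2 RPB1 these shares were 71.6% and 86.9%. Few hosts carried many RPB1 members. In WT cells, 77 hosts had 10 or more, against 842 for pSer2 RPB1, and those 842 held 58.7% of the pSer2 RPB1 members. Of the 77 and 842 genes, 43 were shared, 55.8% of the first and 5.11% of the second list. RPB1 promoter regions were found at 84.4% of the 77, against 71.9% of all 2729 RPB1 hosts in WT cells. They were found at 80.4% of the 842, against 74.9% of all 5508 pSer2 RPB1 hosts.

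The 10 genes with most RPB1 members in WT cells had 22 to 42 of them. NKD1, an inhibitor of Wnt signalling, had 42 RPB1 members in WT cells and 35 in SHP-1 KO cells. GPC3, a cell surface proteoglycan of liver tumors, had 35 and 39, GPT2, a mitochondrial alanine aminotransferase, had 26 and 26, and PSAT1, an enzyme of serine synthesis, had 24 and 27. FN1, the gene of fibronectin, had 24 and 21. The numbers of the 2 cell lines were close in these genes, but the cover was not in each: all RPB1 regions together covered 47.9% of FN1 in WT against 71.8% in SHP-1 KO cells and 42.7% against 65.7% of PSAT1, while NKD1 had 27.4% against 30.8% and GPC3 7.08% against 6.77%. The others of the 10 had fewer in SHP-1 KO cells, namely MEGF6 (36 and 0), ARHGEF10L (32 and 20), ABCC2 (31 and 16), PRDM16 (24 and 16) and GSE1 (22 and 11).

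The genes with most pSer2 RPB1 members in WT cells were other ones, and most were very long. GMDS, an enzyme of GDP-fucose synthesis with a transcript of 552 kb, had 382 in WT cells and 427 in SHP-1 KO cells. RELN, the gene of the secreted glycoprotein reelin, had 308 and 223, and EHBP1, an endocytic adaptor, had 259 and 228. CDK6, a cell cycle kinase, had 147 and 143 and the kinase MAP4K4 had 132 and 142. SND1, a nuclease with a Tudor domain, had 142 and 82. The RPB1 list held almost no members in these genes, with 0 to 3 in WT cells in GMDS, RELN, EHBP1, SND1, MAP4K4 and CDK6. Regions of other classes or hosts are not in this count. The span of RELN held 22 RPB1 regions of any class in WT cells and 21 in SHP-1 KO cells, with a cover of 2.22% and 1.93%. The host named only by its identifier ENSG00000255872 had 109 and 93, and the remaining 3 of the 10, NFIA, SOX5 and ITPR2, are among the genes with fewer in SHP-1 KO cells given further on. The median host with 10 or more members was 85.6 kb long for pSer2 RPB1 and 66.8 kb for RPB1 in WT cells.

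A low number of pSer2 RPB1 members did not mean a gene without pSer2 RPB1. FN1 had 1 member in each cell line, yet regions of all classes covered 99.1% of the gene in WT cells and 99.0% in SHP-1 KO cells. PSAT1 also had 1 and 1, with 96.3% and 97.5% covered, and NKD1 had 5 and 6, with 96.8% and 96.9%. In contrast, the 382 and 427 members of GMDS came with a cover of 33.8% and 54.5%, and the 308 and 223 of RELN with 50.3% and 33.6%. Over the WT pSer2 RPB1 hosts, later intron regions made a median of 52.8% of the covered bases in the 1280 genes with 1 to 5% of their length covered. They made 24.0% in the 1156 genes with 20 to 50% covered and 7.61% in the 37 genes with 90% or more. The density of members was highest between, at a median of 20.0 per 100 kb in genes with 50 to 90% covered, against 5.76 with 90% or more. In the most densely covered genes, nearly all covered bases thus lay in regions of other classes. Both ends of this course follow in part from the definitions. A long region that runs across an exon is counted in another class, and each host had to hold at least 1 member.

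**Figure D3:**
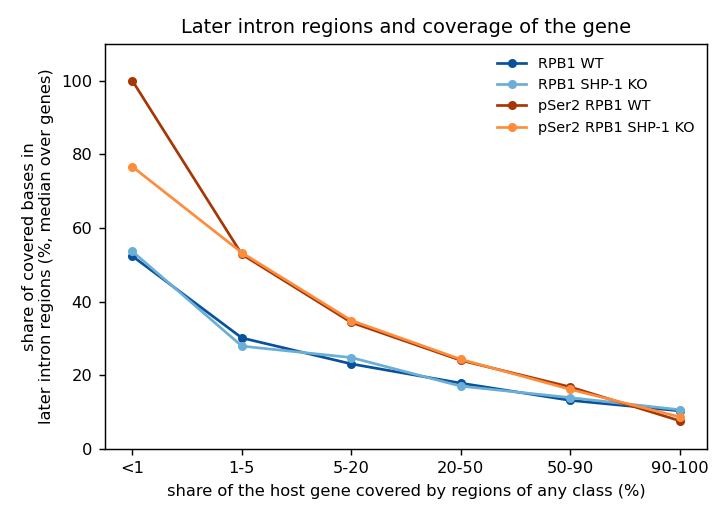
Median share of a gene's covered bases that lies in later intron regions, by the share of the gene covered by regions of any class, for host genes with at least 1 member in each list. For pSer2 RPB1 in WT cells the median runs from 100% below 1% cover through 52.8% at 1 to 5% to 7.61% at 90% or more. Both ends follow in part from the definition of the class and the choice of hosts.

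Among the 106 genes with 10 or more RPB1 members in WT or SHP-1 KO cells, 19 (17.9%) had at most 0.5 times as many in SHP-1 KO cells and 20 (18.9%) at least 2 times as many. The numbers were thus similar in both directions. Among the 942 such genes for pSer2 RPB1, 236 (25.1%) had at most 0.5 times as many in SHP-1 KO cells and 50 (5.31%) at least 2 times as many, beside the ratio of 0.77 over all members. The genes named next are the ends of these distributions and were chosen for their difference, so their values are a description.

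MEGF6, which encodes a protein with EGF-like repeats, had the largest difference in RPB1 members toward WT. It held 36 RPB1 and 16 pSer2 RPB1 members in WT cells, in introns 2 to 14, and 0 of either in SHP-1 KO cells. Over all classes, its span of 124 kb at chr1:3487951-3611508 held 43 RPB1 and 35 pSer2 RPB1 regions in WT cells and 0 in SHP-1 KO cells. The highest RPB1 fold enrichment among its members was 20.8, in intron 4 of 36. PRDM16, a gene of a zinc finger transcription regulator at chr1:3069168-3434342, near it on the same arm, had 24 and 16 RPB1 members and 5 pSer2 RPB1 members in each cell line.

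The other genes of the 5 with the largest such difference were ABCC2, ABCC6, MCF2L and ARHGEF10L. ABCC2, the canalicular exporter of conjugated organic anions, had 31 and 16, ABCC6, another transporter of the liver, had 19 and 5, MCF2L had 18 and 5, and ARHGEF10L had 32 and 20. The pSer2 RPB1 members were fewer in SHP-1 KO cells in MCF2L only, whereas the cover by pSer2 RPB1 was lower in all 4. In ABCC2 the pSer2 RPB1 members numbered 1 and 12, while the cover of the gene by all pSer2 RPB1 regions went from 82.1% to 67.8%. In ARHGEF10L they numbered 40 and 52, with a cover of 65.1% and 47.3%. In MCF2L they numbered 10 and 2, with a cover of 5.92% and 0.879%, and in ABCC6 19 and 19, with a cover of 56.9% and 42.0%. The greater number in ABCC2 and ARHGEF10L thus went with a smaller cover.

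The genes with the largest difference in RPB1 members toward SHP-1 KO included HLF, IARS1, UGDH and FNDC3B. HLF, a transcription factor of the liver and the circadian clock, had 11 RPB1 members in WT cells and 24 in SHP-1 KO cells, and the cover of the gene by all RPB1 regions was 32.5% and 42.9%. UGDH, which makes UDP-glucuronic acid, had 10 and 21, with a cover of 39.0% and 59.5%. IARS1, the cytosolic isoleucyl-tRNA synthetase, had 4 and 16, with a cover of 1.98% and 11.4%. FNDC3B had 0 and 9. Number and cover of RPB1 were both higher in SHP-1 KO cells in these 4 genes. FNDC3B, with a cover of 2.66% and 4.50%, was the lowest of the 4 in SHP-1 KO cells. pSer2 RPB1 already covered 97.9% of HLF in WT cells and 98.9% in SHP-1 KO cells, with 0 and 1 members.

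**Figure D4:**
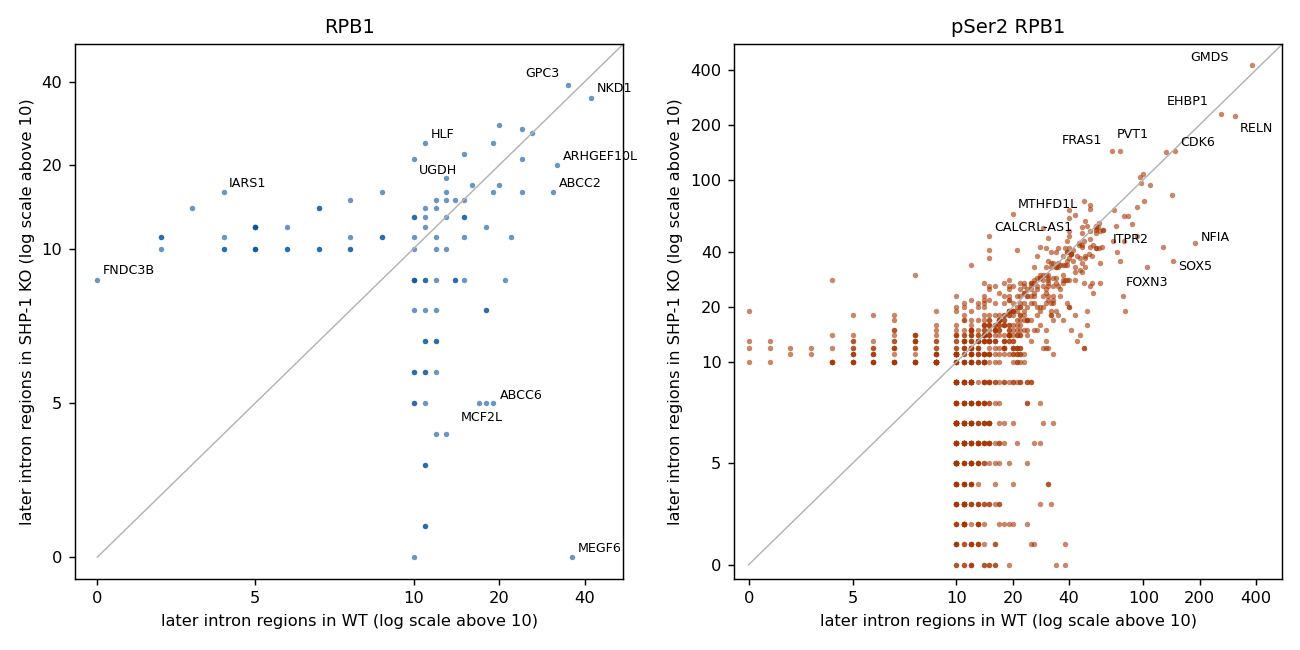
Number of later intron regions per host gene in WT (x axis) and SHP-1 KO cells (y axis) for RPB1 (left) and pSer2 RPB1 (right), for genes with 10 or more in either and the named genes, linear up to 10 and logarithmic above, with the line of equal numbers. MEGF6 lies at 36 and 0 on the left, and NFIA, SOX5, ITPR2 and FOXN3 lie below the line on the right.

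For pSer2 RPB1 the 5 genes with the largest difference toward WT were NFIA, SOX5, ITPR2, RELN and FOXN3. NFIA, a transcription factor of the nuclear factor I family, had 190 members in WT cells and 45 in SHP-1 KO cells, with a cover of 11.8% and 2.60%. Of the 190, 24 were overlapped in SHP-1 KO cells, against 43.2% of all placed WT pSer2 RPB1 members in coding genes. A low overlap follows in part from the choice of NFIA by its fall to 45. SOX5 had 144 and 36, with a cover of 7.11% and 1.51%, and FOXN3, a forkhead factor, had 105 and 33, with a cover of 11.4% and 3.19%. ITPR2, a receptor that releases calcium from the endoplasmic reticulum, had 128 and 43, with a cover of 19.1% and 7.37%, and RELN had 308 and 223. Number and cover were both lower in SHP-1 KO cells in all 5, RELN included. Their median fold enrichments in WT cells ran from 3.04 in NFIA to 3.65 in RELN, around the 3.54 of all members. In NFIA the members lay between positions 0.38 and 1.00, and in SOX5 between 0.47 and 0.58.

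The 5 genes with the largest difference in pSer2 RPB1 members toward SHP-1 KO were FRAS1, PVT1, GMDS, MTHFD1L and CALCRL-AS1. FRAS1, an extracellular matrix gene of 487 kb, had 68 and 143 members and a cover of 5.82% and 15.5%. PVT1, a long noncoding RNA gene near MYC, had 75 and 144, with 13.2% and 27.5%. MTHFD1L, a mitochondrial enzyme of one-carbon metabolism, had 20 and 65, with 2.94% and 16.0%. GMDS had 382 and 427, with 33.8% and 54.5%. In these 4 the cover was higher in SHP-1 KO cells as well. CALCRL-AS1 had 15 and 49, but the cover of its longest transcript was 12.1% and 7.52%.

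GPC3 shows how the class and the count interact. It held 40 pSer2 RPB1 members in WT cells and 68 in SHP-1 KO cells, the longest of 21985 and 23725 bp, while all pSer2 RPB1 regions covered 97.2% and 94.9% of its 450 kb. The SHP-1 KO member of 23725 bp in intron 2 at chrX:133907001-133930725 lay where the WT list held 1 region of 89557 bp, which was counted in another class. The RPB1 members of GPC3, 35 and 39, were short, with medians of 254 and 241 bp, and lay at median positions of 0.19 and 0.20. The longest RPB1 members of the lists were 5517 bp in KCNQ1, 5265 bp in ERRFI1 and 5181 bp in PRDM16 in WT, and 4781 bp in F2, 4768 bp in AMBP and 4134 bp in GSE1 in SHP-1 KO cells. After GPC3, the longest pSer2 RPB1 members were 15236 and 15322 bp in NKD1 and 11740 and 16630 bp in SNTB1.

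**Figure D5:**
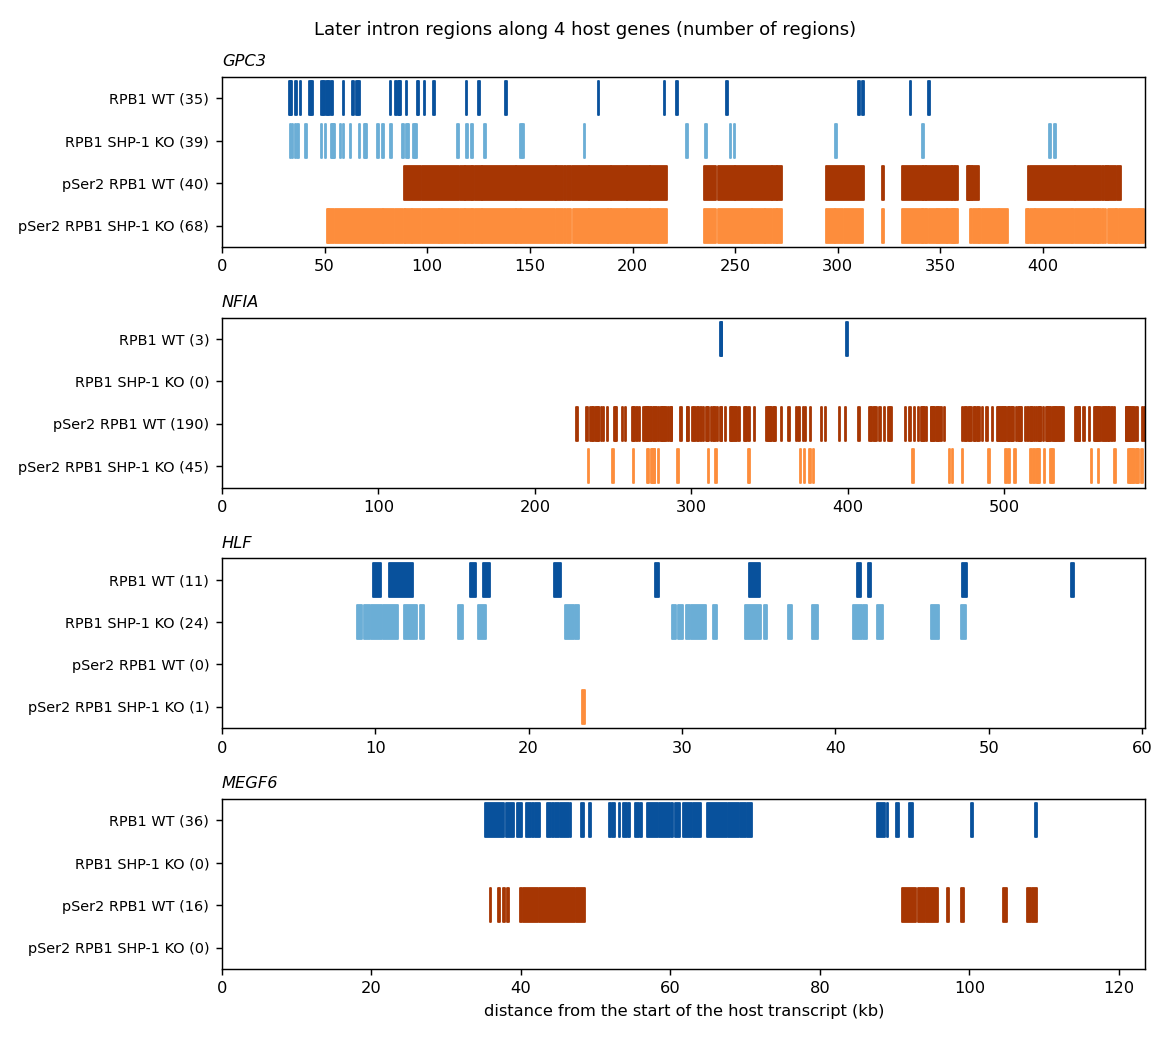
Later intron regions of the 4 lists along GPC3, NFIA, HLF and MEGF6, in kb from the start of the longest host transcript, with the number of regions in each list in brackets. Regions of other classes are not drawn, which is why HLF shows 0 and 1 pSer2 RPB1 regions although 97.9% and 98.9% of it were covered. NFIA goes from 190 to 45 and MEGF6 from 36 and 16 to 0.

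Gene lists of the liver and of transcription were counted next, by the number of members of the list with at least 1 later intron region. Of all genes with an RPB1 promoter region, 16.1% had an RPB1 and 33.7% a pSer2 RPB1 member in WT cells, and 15.5% and 29.1% in SHP-1 KO cells. Over the same kind of gene, those of the list with an RPB1 promoter region, an RPB1 member was found in WT cells at 9 of 27 secreted protein genes, 8 of 18 cholesterol and fatty acid genes, 4 of 12 gluconeogenesis and insulin genes, 6 of 18 elongation genes and 0 of 11 JAK-STAT genes. A pSer2 RPB1 member was found at 6, 13, 6, 10 and 4 of them. In SHP-1 KO cells the RPB1 counts were 12 of 24, 9 of 18, 2 of 10, 3 of 20 and 0 of 12, and the pSer2 RPB1 counts were 8, 14, 6, 8 and 4. The counts that follow are over all genes of a list and have no such background. Of 32 hepatocyte secreted protein genes, 10 in WT cells and 12 in SHP-1 KO cells had an RPB1 member, with 78 and 76 members in all, and 6 and 8 had a pSer2 RPB1 member, with 9 and 23. ITIH2, a plasma protease inhibitor chain, had 20 and 17 RPB1 members and 0 and 1 pSer2 RPB1 members, with 95.5% and 96.4% of the gene covered by pSer2 RPB1. A2M, the alpha-2-macroglobulin gene, had 10 and 10 RPB1 and no pSer2 RPB1 members, with 99.3% and 98.4% covered. C3, the complement component, had 6 and 4 RPB1 and 1 and 10 pSer2 RPB1 members, with 95.9% and 80.7% covered. The span of a gene could be measured only if at least 1 of the 4 lists held a placed member in it. Genes without any member, such as ALB, were thus left out. Of the 13 genes of this list whose span could be measured, 8 were covered to 90% or more by pSer2 RPB1 in WT cells. The other 5 were covered to between 0% and 75.6% and had at most 1 pSer2 RPB1 member. Among these 13, a low number thus went with nearly full as well as lower cover.

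Of 20 cholesterol and fatty acid synthesis genes, 9 had an RPB1 member and 14 a pSer2 RPB1 member in both cell lines, with 36 and 35 RPB1 and 138 and 169 pSer2 RPB1 members. ACACA, the acetyl-CoA carboxylase gene, had 43 pSer2 RPB1 members in WT cells and 64 in SHP-1 KO cells, with a cover of 6.29% and 9.76%. HMGCS1, the HMG-CoA synthase gene, had 2 and 12, but its cover was 95.6% and 60.8%. MVK, the mevalonate kinase gene, had 9 and 5, with 52.2% and 18.2%, LSS had 10 and 5, with 47.2% and 12.5%, and SQLE had 8 and 5, with 46.8% and 22.6%. The number was higher and the cover lower in SHP-1 KO cells for HMGCS1, whereas both were lower for MVK, LSS and SQLE.

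Of 15 gluconeogenesis and insulin signalling genes, 5 in WT cells and 3 in SHP-1 KO cells had an RPB1 member and 6 and 7 a pSer2 RPB1 member. Besides the strong RPB1 region, INSR had 9 pSer2 RPB1 members in WT cells and 1 in SHP-1 KO cells, with a cover of 3.33% and 0.986%. CREB1 had 10 and 5, with 8.46% and 6.69%, and GSK3B had 2 and 8, with 1.22% and 1.54%. PPARGC1A, the coactivator of gluconeogenic genes, had 8 and 13 members but a cover of 4.49% and 3.68%. Of 25 elongation and tail kinase genes, 15 and 12 had a pSer2 RPB1 member, 146 and 120 in all, and 8 and 4 an RPB1 member. CDK12, a Ser2 kinase, had 44 and 38, ELL2, an elongation factor, had 37 and 38, and AFF4, the scaffold of the super elongation complex, had 22 and 9, with a cover of 19.0% and 8.55%. Of 13 SHP-1 and JAK-STAT genes, 0 had an RPB1 member and 4 a pSer2 RPB1 member in each cell line, with 9 and 8 members. JAK1 had 5 and 2 of these.

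The members were not spread over the chromosomes alike in the 2 cell lines. Arm 1p held 632 RPB1 members in WT cells and 418 in SHP-1 KO cells, a ratio of 0.66, against 0.97 for arm 1q. For pSer2 RPB1 the numbers on 1p were 2506 and 1424, a ratio of 0.57, against 0.76 on 1q. Arm 12p, which holds SOX5 and ITPR2, had 461 and 230 pSer2 RPB1 members, a ratio of 0.50, against 0.80 on 12q, while its RPB1 members numbered 56 and 56. SOX5 held 144 and 36 of these pSer2 RPB1 members and ITPR2 held 128 and 43. Most of the difference on 12p thus lay in these 2 genes. All regions on these arms leaned the same way, with ratios of 0.78 for RPB1 and 0.63 for pSer2 RPB1 on 1p and 0.65 for pSer2 RPB1 on 12p. The value of 12p includes the regions of SOX5 and ITPR2. Without 1p, the ratio over all members was 0.93 for RPB1 and 0.78 for pSer2 RPB1. MEGF6, PRDM16, ARHGEF10L and NFIA lie on 1p, and the part of the arm in their values was not tested. Chromosome 13, which holds MCF2L, had 110 and 71 RPB1 members, a ratio of 0.65, while all its RPB1 regions had a ratio of 0.89. On chromosome 6, which holds GMDS and MTHFD1L, the pSer2 RPB1 ratio was the highest of the chromosomes at 0.94. Over all its pSer2 RPB1 regions the ratio was 0.87, also the highest of the chromosomes.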

How the data were processed

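RPB1 and pSer2 RPB1 were profiled by ChIP-seq in 1 library per antibody and cell line, each with the input of the same cells. Groups came from the sample labels. Trimming with Trimmomatic, alignment to hg38 with BWA and narrow peak calling with MACS2, separately for each library and with its input as control, were done by the authors, per the study's methods and the submitters' processing notes. Versions are not given in the sources used here. Each deposited row holds a fold enrichment at the summit (a ratio to input), a p-value and a q-value as −log10, and a whole-number score, which was not used. The authors also deposited a table of their own comparison of RPB1 in SHP-1 KO and WT cells, with directions and p-values, which was not used. The input libraries were not analysed here.

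Members, gene lists and the rule for named genes were chosen with earlier results of these data known. Named were, per antibody, the 10 host genes with most members in WT and the 5 with the largest fall and rise, per list the 5 with the strongest and the 3 with the longest member, and members of 5 gene lists. Cell type markers served to check the label. All 271336 regions lay within their hg38 chromosome. The intron named by the authors was found in GENCODE release 44 for 95.4%, 95.7%, 94.9% and 95.1% of the members of the 4 lists (RPB1 in WT and SHP-1 KO, then pSer2 RPB1 in both), and positions rest on these. Densities used the later introns of the host transcripts so found, pooled over the 4 lists, in which overlapping transcripts of 1 gene are counted each. The cover of a gene is the share of the span of its longest host transcript lying in regions of any class. Overlap was at least 1 bp. Intervals are 95% Wilson intervals, and that of a ratio comes from the interval of the share. The functions were tested on simulated data. With 1 library per group no test was made, and the depth is unknown. Alternatives were a −log10 q-value of at least 5, a reciprocal overlap of 50%, distinct intervals, no exon of release 44, chromosomes 1 to 22 and X, no arm 1p, bases in place of regions, the middle of the region, the nearest gene's ends and, chosen after seeing the data, merging of members under 1 kb apart in 1 intron. Python 3.11.15, pandas 2.3.3, NumPy 2.4.6, SciPy 1.17.1 and matplotlib 3.10.9 were used. The results of some genes named by the rule above, and 1 sequence, are not reported here.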

Additional observations from a re-analysis of the deposited data

How the results depend on the processing

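No paired analysis was possible because each group has 1 library. Of 54 alternative values, 28 stayed within 1.5 times of the count or within the interval of the value. With q-values held to a −log10 of 5 or more, the lists kept 3012, 2723, 12721 and 9870 members (RPB1 in WT, RPB1 in SHP-1 KO, pSer2 RPB1 in WT, pSer2 RPB1 in SHP-1 KO). In the same order, 36.5%, 28.6%, 37.9% and 24.3% of the members were then without a region in the other cells, against 78.1%, 75.2%, 81.4% and 75.7% with a reciprocal overlap of 50%. A pSer2 RPB1 region was found at 67.3% and 71.0% of the stricter RPB1 members in WT and SHP-1 KO cells, and at 12.6% and 12.8% with the reciprocal overlap. Merging members under 1 kb apart left 19940 pSer2 RPB1 members in WT cells and 15377 in SHP-1 KO cells. The SHP-1 KO to WT ratio in bases was 0.84 for RPB1 and 0.80 for pSer2 RPB1, and without arm 1p it was 0.78 for pSer2 RPB1. The median position of the stricter pSer2 RPB1 members in WT cells was 0.62. Within the nearest gene of the authors' columns it was 0.32, 0.31, 0.33 and 0.32, for the 43.8%, 45.9%, 40.3% and 40.6% of the members inside that gene. That gene is picked by its start, which favours early positions by construction. The ratio stayed below 1 for both antibodies under each alternative run on it. The unknown depth limits each count, since weaker regions need more reads to be called.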

Other observations

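Long noncoding RNA genes were hosts to 11.2% of the placed RPB1 members in WT cells (CI 10.5 to 12.0) and 10.5% in SHP-1 KO cells, against 5.97% (CI 5.72 to 6.24) and 5.31% of the pSer2 RPB1 members. The RPB1 members in such hosts were overlapped in the other cell line in 51.1% and 64.5% of cases, against 45.3% and 54.0% of those in coding hosts. For pSer2 RPB1 the shares were 43.95% against 43.18% in WT cells and 71.0% against 58.4% in SHP-1 KO cells.

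Inside introns of 10 kb or more, members were spread over the length of the intron. The first and the last of 5 equal parts held 20.5% and 17.9% of the RPB1 members and 18.5% and 18.5% of the pSer2 RPB1 members in WT cells. A transcript start of GENCODE release 44 lay within 1 kb of 4.38% of the RPB1 and 2.80% of the pSer2 RPB1 members in WT cells, and of 4.60% and 3.15% in SHP-1 KO cells. The nearest gene in the authors' columns was the host gene for 74.1% and 75.4% of the RPB1 members and for 79.9% and 80.3% of the pSer2 RPB1 members.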
